A study of Mus musculus with 2 samples.

Results

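Mirlet7b, Mirlet7d, Mirlet7e, Mirlet7g and Mirlet7i are the mouse let-7 genes b, d, e, g and i, chosen because each of these let-7 microRNAs is made from 1 locus. These 5 genes, all present in the deposited tables under their GENCODE names, are 5 of the 2202 microRNA genes counted. Small RNAs of under 30 nt were sequenced from left cerebral cortex of female mice of the strain B6CASTF1/J, an F1 hybrid of C57BL/6J and the wild-derived strain CAST/EiJ, at an age of 25 days. The labels give 1 group of 2 biological replicates, numbered as separate animals but carrying a single donor record, and no treatment or altered allele. No condition was therefore compared, and any difference between the libraries may be one of animals, dissection or library preparation, which cannot be told apart.

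The let-7 microRNAs were first known from Caenorhabditis elegans, where let-7 times the passage from larval to adult cell fates. In mammals let-7 levels are low in stem cells and rise as cells differentiate, and let-7 represses mRNAs of growth and pluripotency such as Hmga2, Lin28 and Ras genes through a seed shared by the whole family. The Lin28 proteins in turn bind the terminal loop of let-7 precursors and block their maturation. In mouse neural stem cells let-7b is known to restrain proliferation by repressing the nuclear receptor Tlx and cyclin D1, and let-7 is abundant in mature brain.

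The sequences below show what the 5 genes share and what separates them, since a read of a mature sequence made at several loci cannot be assigned to one gene. The 5p arms are given 5′ to 3′ from RefSeq on GRCm38.p6, with the seed (bases 2 to 8) in capitals.
let-7b-5p: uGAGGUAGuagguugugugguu
let-7g-5p: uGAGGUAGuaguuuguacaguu
let-7i-5p: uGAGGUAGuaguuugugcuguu
let-7e-5p: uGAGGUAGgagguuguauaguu
let-7d-5p: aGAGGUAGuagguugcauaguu

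All 5 mature 5p arms were 22 nt long and carried 1 seed. They were identical at 15 of 22 positions, which form runs at bases 2 to 8, 10 to 11, 13 to 15 and 20 to 22, and any pair of them differed at 2 to 6 bases. Counted from 1 at the 5′ end and relative to let-7b-5p, let-7i-5p carried G12U, U18C and G19U, and let-7g-5p carried G12U, G17A, U18C and G19A. Relative to the same sequence, let-7e-5p carried U9G, G17A and G19A. In let-7d-5p the changes were U1A, U16C, G17A and G19A, and it is the one member that does not begin with U.

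Some members lie close to let-7 microRNAs made from other genes. Among RefSeq mouse mature microRNAs of equal length, let-7b-5p stood 1 base from let-7c-5p, and let-7e-5p stood 1 base from let-7a-5p. For let-7d-5p, let-7g-5p and let-7i-5p the closest mature sequence differed at 2 bases. How the counting treated a read with a mismatch between such sequences is not known from the sources used here. The hairpins shared stretches of at most 14 nt (Mirlet7d) to 19 nt (Mirlet7b, Mirlet7g and Mirlet7i) with any other RefSeq mouse hairpin, with 17 nt for Mirlet7e. Hairpins of the let-7a, let-7c and let-7f genes shared 22 to 26 nt, which is at least the length of a whole mature microRNA.

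**Figure D1:**
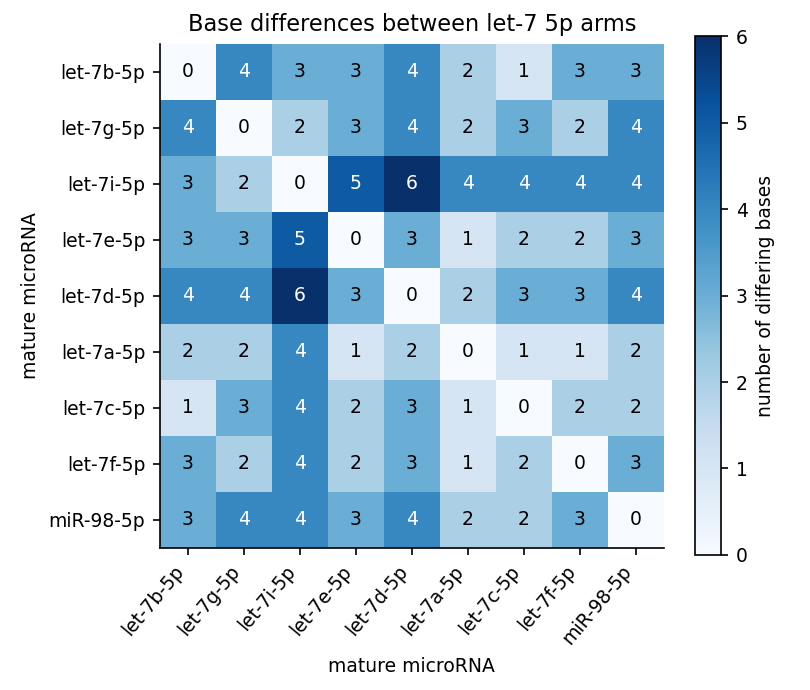
Number of differing bases between each pair of let-7 family 5p arms over 22 positions. The 5 single-locus microRNAs (first 5 rows) differ from each other at 2 to 6 bases, while let-7b-5p and let-7e-5p each stand 1 base from a microRNA made by other genes.

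The 3p arms were less alike when compared position by position from their 5′ ends. They carried 5 different seeds and differed from each other at 4 to 18 bases. No alignment was made, and let-7g-3p opens with an extra a before the c that opens the other arms. Its differences from the other arms, and its seed, depend on that start. The seed of let-7b-3p is shared with 3p arms of Mirlet7a-1, Mirlet7c-2, Mirlet7f-1 and Mir98, whereas the 3p seeds of Mirlet7d, Mirlet7e, Mirlet7g and Mirlet7i occurred in no other RefSeq mouse mature microRNA. These arms are shown for that contrast, again with bases 2 to 8 in capitals.
let-7b-3p: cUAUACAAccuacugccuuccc
let-7d-3p: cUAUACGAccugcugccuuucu
let-7e-3p: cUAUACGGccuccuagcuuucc
let-7g-3p: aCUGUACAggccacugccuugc
let-7i-3p: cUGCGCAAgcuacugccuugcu
A count in the tables joins both arms of a hairpin, so the values below cannot be divided between 5p and 3p.

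The hairpins are the features that were counted, and their terminal loops are where Lin28 binds. On the hairpin strand the loop between the annotated arms, 23 to 34 nt long, was searched for the 4 letters GGAG, known as the site of the Lin28 zinc knuckles. The word is in capitals below.
Mirlet7b: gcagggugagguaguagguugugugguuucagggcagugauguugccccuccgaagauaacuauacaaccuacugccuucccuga
Mirlet7g: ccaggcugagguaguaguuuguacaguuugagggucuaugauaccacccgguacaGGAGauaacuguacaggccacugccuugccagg
Mirlet7i: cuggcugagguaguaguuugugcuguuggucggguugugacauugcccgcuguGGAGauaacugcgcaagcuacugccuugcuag
Mirlet7e: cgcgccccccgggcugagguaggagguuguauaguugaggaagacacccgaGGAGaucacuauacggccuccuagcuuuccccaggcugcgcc
Mirlet7d: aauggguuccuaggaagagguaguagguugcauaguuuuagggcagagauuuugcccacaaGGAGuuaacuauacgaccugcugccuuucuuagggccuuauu
GGAG was present in the loops of Mirlet7d, Mirlet7e, Mirlet7g and Mirlet7i, 3 or 4 bases before the 3p arm, and not in the loop of Mirlet7b. The loops of Mirlet7a-1, Mirlet7c-1, Mirlet7f-1 and Mirlet7f-2 held it as well, and those of Mirlet7c-2 and Mir98 did not, so it does not set the 5 genes apart within the family. It occurred in 52 of 644 mouse hairpins with both arms in RefSeq (8.07%). Among the 52 hairpins with loops as long as those of the 5 genes it occurred in 13, and in 5 of 42 (11.9%) once let-7 genes and Mir98 were set aside. A match describes the letters and shows no binding, and Lin28 itself was not measured in these small RNA libraries.

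The 5 genes lie on 5 chromosomes (mm10, GENCODE M21), and hosts and neighbours differ. Mirlet7g (ENSMUSG00000065440.1, chr9:106178840-106178927, plus strand) sits within an intron of Wdr82, whose protein belongs to histone H3K4 methyltransferase complexes. Mirlet7i (ENSMUSG00000065406.3, chr10:122985640-122985724, minus strand) overlaps an exon of the transcribed processed pseudogene D630033A02Rik. No other microRNA gene lies within 10 kb of Mirlet7g or Mirlet7i. Mirlet7b (ENSMUSG00000065564.1, chr15:85707319-85707403, plus strand) overlaps an exon of Lncppara, and Mirlet7c-2 lies 621 bases upstream. Mirlet7d (ENSMUSG00000065453.1, chr13:48536012-48536114, minus strand) overlaps an exon of the long noncoding RNA 6720427I07Rik, together with Mirlet7f-1 and Mirlet7a-1. Mirlet7e (ENSMUSG00000105758.1, chr17:17830352-17830444, plus strand) lies in an intron of Spaca6, a gene of sperm and egg fusion in the mouse, between Mir99b and Mir125a.

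The libraries held 3017058 own-strand microRNA gene counts in replicate 1 and 3209361 in replicate 2, the totals behind the CPM (counts scaled to the usual unit by these totals) used throughout. Reads placed at several loci, 40.3% and 39.0% of all reads, are outside gene counts. The cortex label was compared with its markers. The neuronal list (12 genes, 8 with at least 10 counts in both libraries) held 21.4% and 20.1% of counts, of which Mir139 alone held 15.6% and 14.2%. The 4 genes below that minimum, Mir9-2 and the 3 Mir124a genes, had 0 to 9 counts. Mir9 and Mir124a have several loci each, so these counts need not mean a low level. The liver, red blood cell, pancreas and pituitary, muscle and embryonic stem cell lists each held at most 0.0168%. Of 6 muscle genes, Mir206 had 82 and 110 counts and the other 5 were at 0, which in genes made from several loci need not be a low level. Oligodendrocyte genes held 0.366% and 0.563% of counts in replicates 1 and 2, the endothelial gene Mir126a 0.571% and 0.884%, and microglial and immune genes 0.284% and 0.240%. Tissue RNA cannot tell fewer cells of a type from less RNA per cell.

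Together the 5 genes held a similar, large share of the counted microRNA reads in both libraries. Their summed counts were 746605 in replicate 1 and 769874 in replicate 2, which is 24.7% (exact binomial 95% interval 24.70 to 24.79) and 24.0% (23.94 to 24.04) of microRNA gene counts. The mean was 24.4% ± 0.536 (SD, n = 2). Set against all reads, including those unmapped or placed at several loci, the mean share was 8.54%. All 5 were among the 10 highest genes, which together held 54.0% ± 1.66 of microRNA gene counts. Reads placed at several loci do not enter these ranks, and the 5 genes were chosen for having 1 locus each.

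Mirlet7b was the highest of them, with 221156 and 237048 counts in replicates 1 and 2. These are 73302 CPM (exact Poisson 95% interval 72997 to 73608) and 73861 CPM (73564 to 74159), a mean of 73582 ± 396 CPM (SD, n = 2). Only Mir139, at 14.9% ± 0.984 of counts, stood above it in either library. Its coefficient of variation over the replicates was 0.538% with library totals and 10.6% after TMM scaling (edgeR's trimmed mean normalisation), the lowest of the 5 genes on both scales.

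Mirlet7g, known in the mouse for restraining lung tumours driven by Ras, was at 69802 CPM in replicate 1 and 61365 CPM in replicate 2, below Mirlet7b alone among the 5 genes in both libraries. Its mean was 65583 ± 5966 CPM. Mirlet7i, whose microRNA is known in human bile duct cells to repress the receptor gene TLR4, was at 54721 and 46249 CPM, a mean of 50485 ± 5991 CPM. Both were lower in replicate 2, and in each library Mirlet7b exceeded Mirlet7g and Mirlet7g exceeded Mirlet7i.

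Mirlet7e was at 29639 CPM in replicate 1 and 26614 CPM in replicate 2, a mean of 28127 ± 2139 CPM. Mirlet7d was at 19997 CPM (interval 19838 to 20157) and 31795 CPM (31600 to 31991), a mean of 25896 ± 8342 CPM. Mirlet7d was thus the lowest of the 5 in replicate 1 and above Mirlet7e in replicate 2, the one change of order between the libraries. With library totals its coefficient of variation was 32.2%, against 7.61% for Mirlet7e, 9.10% for Mirlet7g and 11.9% for Mirlet7i. After TMM scaling the same values were 21.4% for Mirlet7d, 18.7% for Mirlet7e, 20.2% for Mirlet7g and 22.9% for Mirlet7i, so which of the 5 varied most depended on the scaling.

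By CPM the order was Mirlet7b, Mirlet7g, Mirlet7i, Mirlet7e and Mirlet7d. The replicate ranges of Mirlet7e and Mirlet7d overlapped, so these neighbours did not differ beyond their spread. The other 3 pairs of neighbours did not overlap on the CPM scale, with means apart by 1.12-fold for Mirlet7b over Mirlet7g, 1.30-fold for Mirlet7g over Mirlet7i and 1.79-fold for Mirlet7i over Mirlet7e. After TMM scaling, which raises replicate 1 relative to replicate 2, the ranges of Mirlet7b and Mirlet7g and of Mirlet7g and Mirlet7i overlapped as well. The order within each library does not depend on that scaling. A microRNA read covers the whole mature molecule, so these levels were not divided by length, and dividing by hairpin length (85 to 103 nt) left the order of means as it was.

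The other let-7 genes gave far fewer counts. Of 10 further genes on the let-7 list, 7 had at least 10 counts in both libraries, and together the 10 held 0.835% ± 0.0413 of microRNA gene counts. The 5 single-locus genes thus supplied 96.7% ± 0.0880 of the counts of the family. Mir98, which shares the seed and in RefSeq is the one locus of miR-98, was the highest of the rest at 3691 and 3193 CPM. The lowest of the 5, Mirlet7d, had a mean 7.52-fold above that of Mir98.

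Next in level came Mirlet7f-2 at 1912 and 2001 CPM and Mirlet7c-2 at 1852 and 1775 CPM. Mirlet7c-1 averaged 488 CPM, Mirlet7a-1 359 CPM, Mirlet7f-1 156 CPM and Mirlet7a-2 131 CPM. Mir202, Mir7k (the locus of let-7k) and Mir1961 were at or near 0, with 0 and 6, 2 and 0, and 0 and 0 counts. The let-7a, let-7c and let-7f genes share stretches of 22 nt or more with another hairpin, and how many of their reads are among those placed at several loci was not tested. The share of the 5 genes in the family therefore applies to reads assigned to 1 gene.

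**Figure D2:**
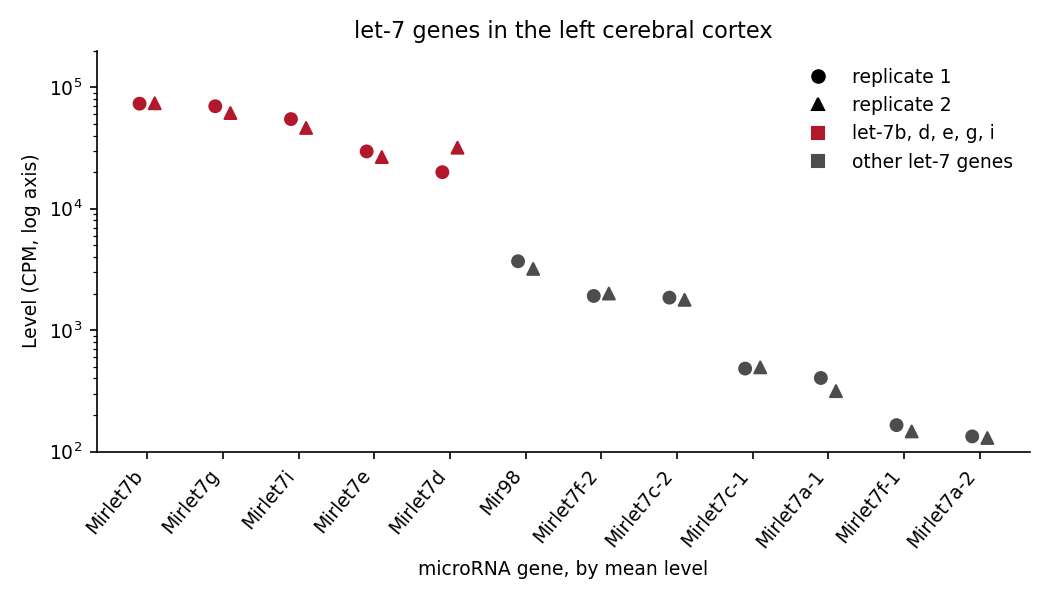
Level of each let-7 gene with at least 10 counts in both libraries, in CPM on a log axis, with circles for replicate 1 and triangles for replicate 2. The 5 single-locus genes (red) lie between 19997 and 73861 CPM, and every other let-7 gene (grey) lies at or below 3691 CPM.

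Shares within the 5 do not depend on the library total. Mirlet7b held 29.6% of the 5 genes' counts in replicate 1 and 30.8% in replicate 2. Mirlet7g held 28.2% and 25.6%, Mirlet7i 22.1% and 19.3%, and Mirlet7e 12.0% and 11.1%. Mirlet7d held 8.08% (exact binomial 95% interval 8.02 to 8.14) in replicate 1 and 13.3% (13.18 to 13.33) in replicate 2. Mirlet7d was therefore the gene whose share differed most between the libraries. Its share in replicate 2 was 1.64 times that in replicate 1, against 0.872 for Mirlet7i, 0.907 for Mirlet7g, 0.926 for Mirlet7e and 1.04 for Mirlet7b. The count of Mirlet7d was 0.675 times that of Mirlet7e in replicate 1 and 1.19 times in replicate 2.

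**Figure D3:**
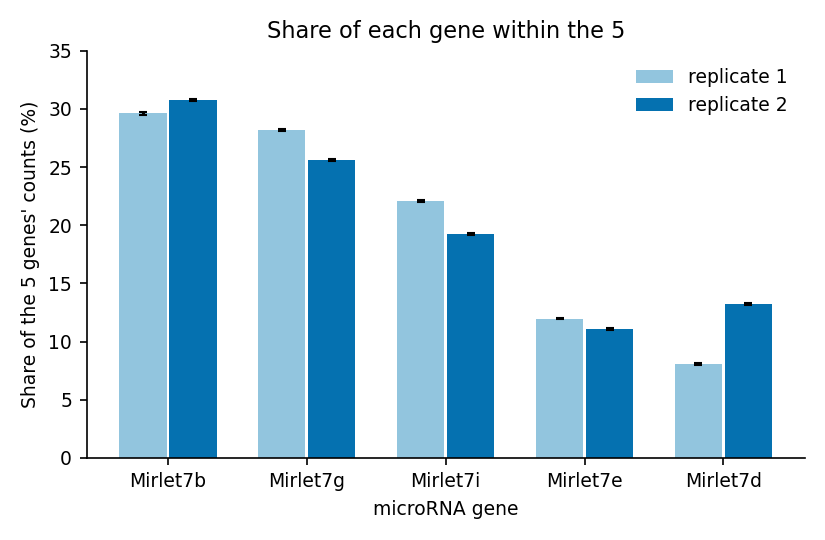
Share of each gene in the summed counts of the 5 genes, in percent, for replicates 1 and 2, with exact binomial 95% intervals as error bars. Mirlet7d holds 8.08% in replicate 1 and 13.3% in replicate 2, the widest relative gap of the 5 genes.

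The libraries were compared gene by gene with edgeR's binomial test after TMM scaling, which compares libraries and not conditions. Mirlet7d was higher in replicate 2, with a log2 ratio of replicate 2 over replicate 1 of 0.44 (95% counting interval 0.43 to 0.45). By share of library totals, the oligodendrocyte and endothelial markers given above also stood higher in replicate 2. So did the red blood cell, liver, muscle and pancreas and pituitary lists, each at most 0.0168% of counts. The liver list is 1 gene, and the muscle list had 1 gene with at least 10 counts in both libraries. The embryonic stem cell list had 0 of 10 such genes. It held 0.000365% and 0.000374% of counts, too few to give a direction. The neuronal list and the microglial and immune list held smaller shares in replicate 2, but their genes did not all go that way. Mir139 was at 155820 and 141898 CPM in replicates 1 and 2, whereas Mir128-1 was at 11855 and 14517 CPM. Mir150 was at 1967 and 1562 CPM, whereas Mir146 was at 714 and 717 CPM. On that scale the median log2 ratio of all tested genes was itself 0.22. The part of cell types in the ratio of Mirlet7d was not tested. Mirlet7i was lower in replicate 2 with a log2 ratio of -0.47 (-0.48 to -0.46), Mirlet7g with -0.41 (-0.42 to -0.41), Mirlet7e with -0.38 (-0.40 to -0.37) and Mirlet7b with -0.22 (-0.23 to -0.21). For each of the 5 the Benjamini-Hochberg adjusted p of edgeR's binomial test was under 1e-300. Relative to library totals the log2 ratio of Mirlet7b was 0.011, so its direction rests on the scaling, while the other 4 kept theirs.

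At this depth such calls say little about the members, because the test sees counting noise alone. Of 496 genes with at least 10 counts in total, 280 (56.5%) were called, of which 128 (25.8% of those tested) had more in replicate 2 and 152 (30.6%) more in replicate 1. With library totals 282 were called and 180 of them had more in replicate 2, so the balance of directions rests on the scaling. Of the 99 genes that averaged 1000 CPM or more, 98 (99.0%) were called, and all 5 members belong to that class. The median absolute log2 ratio was 0.41 over the 5 genes and 0.42 over the 99 abundant genes, and 42 of the 99 (42.4%) had a larger absolute ratio than any of the 5. The signed median was -0.38 for the 5 genes and -0.25 for the 99 after TMM scaling, and -0.16 and -0.022 with library totals. By these absolute ratios the 5 genes were of the size seen across abundant genes. The biological coefficient of variation was 36.7%, a single value over all tested genes that does not describe abundant genes alone.

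**Figure D4:**
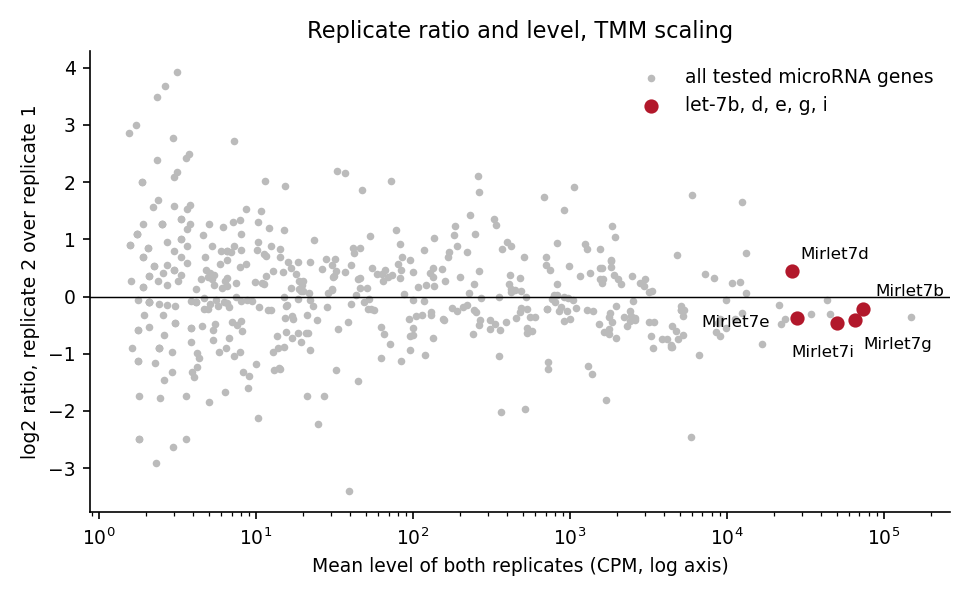
Log2 ratio of replicate 2 over replicate 1 after TMM scaling against mean level in CPM on a log axis, with 1 point per tested microRNA gene, of which 496 were tested (genes with 0 counts in a library are not drawn), and the 5 single-locus let-7 genes in red. Mirlet7d lies above 0 at 0.44 and the other 4 lie between -0.47 and -0.22, all inside the spread of the other genes.

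Within the loci of Mirlet7d and Mirlet7e, neighbouring genes had replicate ratios of both signs. In the Mirlet7d locus, Mirlet7a-1 had 1217 and 1009 counts (log2 ratio -0.59, interval -0.71 to -0.47) and Mirlet7f-1 had 498 and 470 (-0.40, interval -0.59 to -0.22), while Mirlet7d had 60333 and 102042 and a ratio of the opposite sign. Mirlet7d gave 49.6 times the counts of Mirlet7a-1 in replicate 1 and 101 times in replicate 2. These 3 genes overlap exons of one annotated host.

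In the Mirlet7e locus, Mir99b had 31528 and 24239 counts (log2 ratio -0.70, interval -0.72 to -0.67) and Mir125a had 26739 and 56237 (0.75, interval 0.73 to 0.78). Mir125a, a mammalian relative of the worm timing microRNA lin-4, thus had a ratio of opposite sign to Mirlet7e and Mir99b. Mir99b lies 94 bases before Mirlet7e and Mir125a lies 367 bases after it. Mirlet7e gave 2.84 and 3.52 times the counts of Mir99b in replicates 1 and 2, and 3.34 and 1.52 times those of Mir125a.

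In the Mirlet7b locus, Mirlet7c-2 had 5588 and 5698 counts, and its log2 ratio of -0.29 (interval -0.34 to -0.24) had the sign of that of Mirlet7b. Mirlet7b gave 39.6 and 41.6 times the counts of Mirlet7c-2. All 5 of these neighbours were called by edgeR's binomial test, with adjusted p from under 1e-300 (Mir99b and Mir125a) to 4.37e-05 (Mirlet7f-1). Relative to library totals Mirlet7c-2 stood at -0.061, opposite in sign to Mirlet7b at 0.011, and the other 4 neighbours kept their sign. Mirlet7f-1 was no longer called there, with a log2 ratio of -0.17 and an adjusted p of 0.108 by edgeR's binomial test. Differences between neighbours at 1 locus were not tested beyond these intervals, which hold counting error only.

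**Figure D5:**
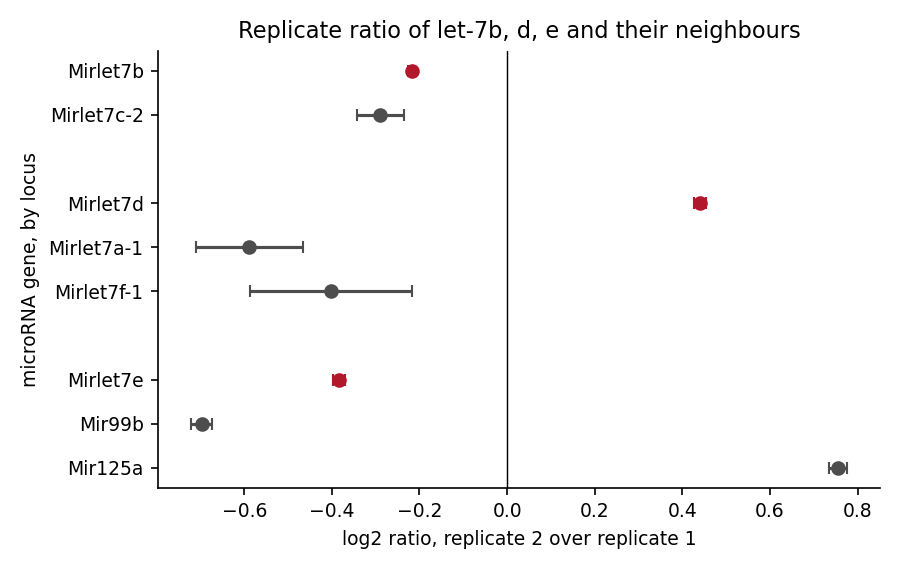
Log2 ratio of replicate 2 over replicate 1 after TMM scaling for Mirlet7b, Mirlet7d and Mirlet7e (red) and the counted microRNA genes within 10 kb with at least 10 counts (grey), grouped by locus, with 95% counting intervals. Mirlet7d at 0.44 lies opposite to Mirlet7a-1 and Mirlet7f-1, and Mir125a at 0.75 lies opposite to Mirlet7e and Mir99b.

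The count of Mirlet7e depended on the strand column used. The annotated microRNA gene Gm25927 (chr17:17830343-17830459, minus strand) covers it on the opposite strand. In the column that ignores strand Mirlet7e had 0 counts in both libraries, and in the opposite-strand column Gm25927 had 89423 and 85414 counts, exactly those of Mirlet7e on its own strand. Gm25927 itself had 0 own-strand counts in both libraries. The other 4 genes kept their counts in the column that ignores strand, to within 3 counts, and had 0 to 3 counts on the opposite strand.

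Outside the let-7 list, the single gene closest in level to each member over both libraries was an imprinted microRNA gene of the Dlk1-Dio3 region. Genes beyond that nearest one were not examined. By Euclidean distance of log2(CPM + 1) over the 2 replicates, Mir127 was nearest to Mirlet7i (distance 0.23), to Mirlet7g (0.74) and to Mirlet7b (0.97), at 46991 and 44436 CPM. Mir770, at 25034 and 22240 CPM, was nearest to Mirlet7e (0.36), and Mir433, at 20788 and 21921 CPM, to Mirlet7d (0.54). Within the list, Mirlet7b and Mirlet7g were closer to each other, at 0.28. With 2 libraries this likeness is one of level and describes no shared pattern.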

How the data were processed

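The deposited files hold raw read counts per microRNA gene, 1 table per library, made by the authors on mm10 with GENCODE M21, per the file headers of the accompanying descriptions. No source used here names the aligner or counter. The roles of the columns (either strand, own strand, opposite strand) were read from the values. All 2202 identifiers matched M21, and 4 read classes were left out of the totals. CPM used own-strand sums. The level that a count of 0 allows, set at 3 counts, was 0.994 CPM (replicate 1) or 0.935 CPM (replicate 2). Such limits and all intervals reflect counting error alone, because PCR copies were not marked by molecular identifiers. P-values weigh the difference between the libraries against counting noise alone.

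The libraries were compared with the binomial test of edgeR 4.0.16 (R 4.3.3), exact up to 10000 counts and a chi-square approximation above, on genes with at least 10 counts in total. Calls had Benjamini-Hochberg adjusted p under 0.05. In counts simulated with counting noise alone (495 genes), it called 1.01% of 296 unchanged genes and 96.2% of 53 genes changed 4-fold. At smaller changes it called 38.6% of 44 genes changed 1.1-fold and 46.9% of 49 changed 1.25-fold. The simulation held no variation between animals or libraries, so 1.01% is not the rate of false calls in the real libraries. Alternatives used DESeq2 1.42.0 size factors, library totals, other columns, filters and denominators. Python 3.11.15 with scipy 1.17.1 gave intervals.

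The genes, the let-7 list and the markers were chosen with earlier results of these data known. Named genes were the 5 members, the let-7 list, microRNA genes within 10 kb, overlapping genes, the nearest gene in level outside the list for each member, and Mir139. The names Mirlet7j and Mirlet7k matched no counted gene. Sequences came from RefSeq on GRCm38.p6, where all 5 genes matched. RefSeq gives no 5p sequence for Mirlet7a-2 in the table used here.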

Additional observations from a re-analysis of the deposited data

Results flagged for a closer look

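Reads that the strand-blind column sets aside as ambiguous drew attention because that column leaves them out, although the own-strand counts used here hold them. Mirlet7e alone accounts for 45.0% of them in replicate 1 and 39.7% in replicate 2, taking its own-strand count over the ambiguous total. These were 89423 of 198617 and 85414 of 215418 reads.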

How the results depend on the processing

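No paired analysis was possible because there is 1 group. The summed share of the 5 genes was 24.4%. It was 23.1% with the either-strand column, where Mirlet7e drops to 0, and 22.8% with own-strand and opposite-strand columns joined. The joined columns count the reads of Mirlet7e again under Gm25927, which enlarges their total. The share was 8.54% of all reads, and it ranged from 24.0% to 24.7% when each replicate was left out. Scaled by TMM it was 26.8% in replicate 1 and 22.2% in replicate 2, against 24.7% and 24.0% unscaled, a wider gap whose mean is nearly fixed by construction. Levels of single members moved by more than the spread between replicates for 5 of 5 genes with all reads as the denominator, 2 with the either-strand column, 1 with the joined columns and 1 with hairpin length. Overlapping neighbours in the order by level numbered 1 of 4 pairs, 3 with TMM or DESeq2 scaling and 0 with the either-strand column. The order alternatives and the exact test at every depth were chosen after seeing the data. The log2 ratio of Mirlet7b turned from -0.22 to 0.011 (adjusted p = 0.0145, edgeR's binomial test) with library totals, and no other member changed sign under any alternative. All 5 members were called under each alternative in which they had counts, and 4 with the either-strand column. Calls over all genes ranged from 238 to 282, against 280. With library totals 180 of the 282 called genes had more in replicate 2, against 128 of 280 with TMM scaling. TMM scaling moved the median log2 ratio of all tested genes from 0.22 to -0.0090. Depth does not limit the 5 genes, whose lowest count in a library was 60333, but the number of libraries does. Levels of let-7 genes with identical mature sequences are limited by reads placed at several loci. How reads 1 base from another let-7 microRNA were assigned is not known. The counts of Mirlet7b and Mirlet7e may hold or lack such reads.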
